A study of Homo sapiens with 2 samples.

Results

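The ATP-binding cassette (ABC) transporter genes were followed in 769-P, a permanent line of human kidney tumour cells (clear-cell renal cell carcinoma), with and without overexpression of the forkhead transcription factor FOXK2. Members were all transcript clusters with a single annotated gene symbol made of ABC, a letter from A to G and a number, without pseudogenes and antisense genes; this gave 42 genes, measured by 48 transcript clusters, of 22411 genes in all. Control cells carried the plv-EGFP empty vector, and FOXK2 cells carried pLV-EGFP-FOXK2, which holds the complete FOXK2 coding sequence; both were delivered by lentivirus, and both groups thus share the EGFP vector backbone. Total RNA of each group was hybridised to 1 whole-transcript Affymetrix array. The labels do not say whether the cells were a clone or a pool. Because each group is 1 array, every difference is a single measurement without a replicate check, and no test or error can be given.

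ABC proteins bind and hydrolyse ATP through a conserved nucleotide-binding domain, and most use that energy to move a substrate across a membrane. Subfamily A moves lipids, B holds P-glycoprotein, bile and organelle transporters, C holds the multidrug resistance-associated proteins and the regulatory subunits of potassium channels, D serves peroxisomes and lysosomes, and G moves sterols and drugs. The E and F proteins keep the ATP-binding domains but have no membrane part and act on ribosomes. In the proximal tubule, the part of the kidney from which clear-cell carcinoma is thought to arise, P-glycoprotein and several C members secrete drugs and organic anions into the urine.

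All values are log2 expression values, and a difference is the FOXK2 array's value minus the empty vector array's. FOXK2 itself stood at 13.82 in the FOXK2 array and at 9.36 with empty vector, a difference of 4.46 in the direction of the labels. A gene was counted if its mean over both arrays reached 5.24, the median of all transcript clusters with 1 symbol, called the level limit here; 11263 genes did. All 9 measured markers of kidney carcinoma and kidney epithelium lay above the limit in both arrays, from PAX8 at 10.96 with empty vector and 10.80 with FOXK2 to the endocytic receptors of the proximal tubule, CUBN at 9.41 and 12.84 and LRP2 at 13.15 and 16.20. CUBN, LRP2 and ANGPTL4, which differed by 1.12, were thus at least 2-fold higher with FOXK2, and the list median was -0.08; their part in the differences of the tubule pumps given below was not tested. By contrast, none of the 6 measured leukocyte and endothelial markers and none of the 4 hepatocyte markers did in either array. Whether a value lay above the arrays' background is not known.

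Of the 42 ABC genes, 21 lay above the level limit and 21 below it. ABCB8, with a mean of 5.28, was the nearest inside, and ABCA7, with 4.98, the nearest outside. ABCA5 and ABCB8 passed on their mean although 1 array of each lay under the limit, so 19 members passed in both arrays. Filtering on the mean favours members that were high in either group.

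At least a 2-fold difference was seen in 5 members. ABCB1 was 3.80-fold higher with FOXK2, ABCA12 3.33-fold lower, ABCE1 2.49-fold lower, ABCC1 2.25-fold lower and ABCC5 2.05-fold lower. The 1 member higher made up 4.76% of those above the limit, where 2.13% of all genes were at least 2-fold higher. The 4 lower members made up 19.0%, where 3.05% of all genes were at least 2-fold lower. At a limit of 1.5-fold, 3 members were higher (6.09% of all genes were), adding ABCA2 and ABCA5, and 5 were lower (10.6% of all genes were), adding ABCF2. Members of a family are not independent of each other, and these shares have no test. Of 358 measured genes of the other large transporter class, the solute carriers (SLC), 182 lay above the level limit. Among these 182, 5.49% were at least 2-fold higher and 3.85% lower, and whether the ABC genes differ from them was not tested. The median difference of the 21 members was -0.19, against -0.05 over all genes above the limit, and 13 of the 21 were negative, or 61.9%, against 55.6% of all genes. Over all 42 members the median was 0.03, against 0.02 over all 22411 genes, so the sign of the median turned with the filter, and the mean over all 42 was -0.06.

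**Figure D1:**
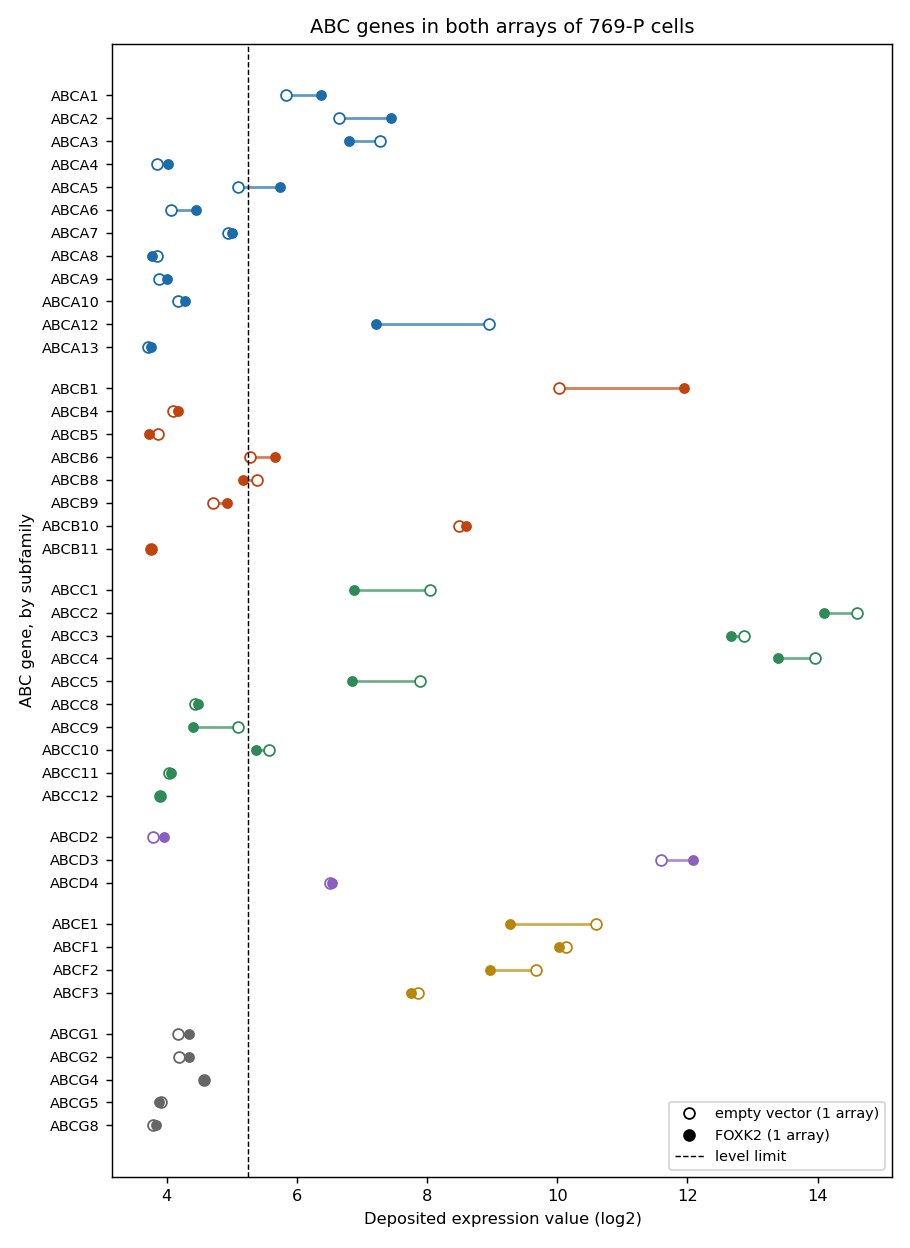
Deposited log2 expression values (x axis) of the 42 ABC genes (y axis, grouped and coloured by subfamily) in the empty vector array (open circles) and the FOXK2 array (filled circles), each a single array, with the level limit of 5.24 as a dashed line. ABCB1 moves furthest to the right and ABCA12 furthest to the left, all 6 C members above the limit lie lower with FOXK2, and all 5 G members lie below the limit; positions of different genes on the x axis are not comparable, since each gene has its own probes.

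The drug and organic anion pumps differed in both directions. ABCB1 encodes P-glycoprotein, the multidrug efflux pump of the apical membrane, and its value was 10.03 with empty vector and 11.95 with FOXK2. The difference of 1.93 placed it at rank 67 from the highest among 11263 genes. That difference ranged from 1.75 to 2.01 under centring, loess, quantile normalization and subtraction of the running median along the chromosome. ABCG2, the breast cancer resistance protein, another apical drug and urate exporter, stood at 4.19 and 4.34, below the level limit in both arrays. Of the 7 listed pumps above the limit, ABCB1 was the only positive one, where 43.3% of all genes were positive. Over all 10 listed pumps, 4 were positive and 6 negative.

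The multidrug resistance-associated proteins of subfamily C above the level limit had negative differences, with a median of -0.54, against -0.05 over all genes. Of these 6, 2 were at least 2-fold lower, where 3.05% of all genes were. All 6 stayed negative under each scaling, where 55.6% of all genes were negative as deposited and 64.0% after centring. Over all 10 measured C members, 7 were negative and 3 positive. ABCC1, which exports glutathione conjugates and, in polarised cells, sits on the basolateral side, stood at 8.05 with empty vector and 6.88 with FOXK2, a difference of -1.17 and rank 229 from the lowest. ABCC5, an exporter of cyclic nucleotides and nucleotide analogues, stood at 7.89 and 6.85. Its difference of -1.04 was just past the 2-fold limit, and it was short of it after loess (-0.96), after quantile normalization (-0.997) and after subtraction of its chromosomal neighbourhood (-0.72).

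The other 4 C members above the limit were short of 2-fold. ABCC4, an apical exporter of cyclic nucleotides and organic anions in the tubule, stood at 13.96 with empty vector and 13.39 with FOXK2, a difference of -0.57. ABCC2, the apical exporter of glucuronide and glutathione conjugates, stood at 14.60 and 14.09, a difference of -0.51. ABCC3, a basolateral exporter of conjugates, differed by -0.19 and ABCC10 by -0.20. The apical pumps of the tubule thus did not share a direction in these arrays: ABCB1 was higher, while ABCC2 and ABCC4 had negative differences below 2-fold in size. ABCC8 and ABCC9, the sulphonylurea receptors that form potassium channels with a separate pore protein, lay below the level limit; ABCC9 stood at 5.10 and 4.41, the widest gap among the members below the limit, and its pore partner KCNJ8 at 5.47 and 5.05.

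Glutathione, which ABCC1 and ABCC2 export in conjugates, is made, recycled and conjugated by genes of which 9 were listed. Of these, 8 were measured and 6 lay above the level limit. SLC7A11, the cystine importer that feeds glutathione synthesis, stood at 7.99 with empty vector and 5.83 with FOXK2, or 4.45-fold lower. GCLM, a subunit of the enzyme that starts glutathione synthesis, differed by -0.88, and GSR, glutathione reductase, by -0.75, while GSTM1, a conjugating transferase, differed by 0.33. In all, 1 of the 6 was at least 2-fold lower, none was higher, 4 were negative and the median was -0.46. Over all genes 3.05% were at least 2-fold lower and 55.6% negative, so the share of negative genes in this short list is near that of all genes.

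**Figure D2:**
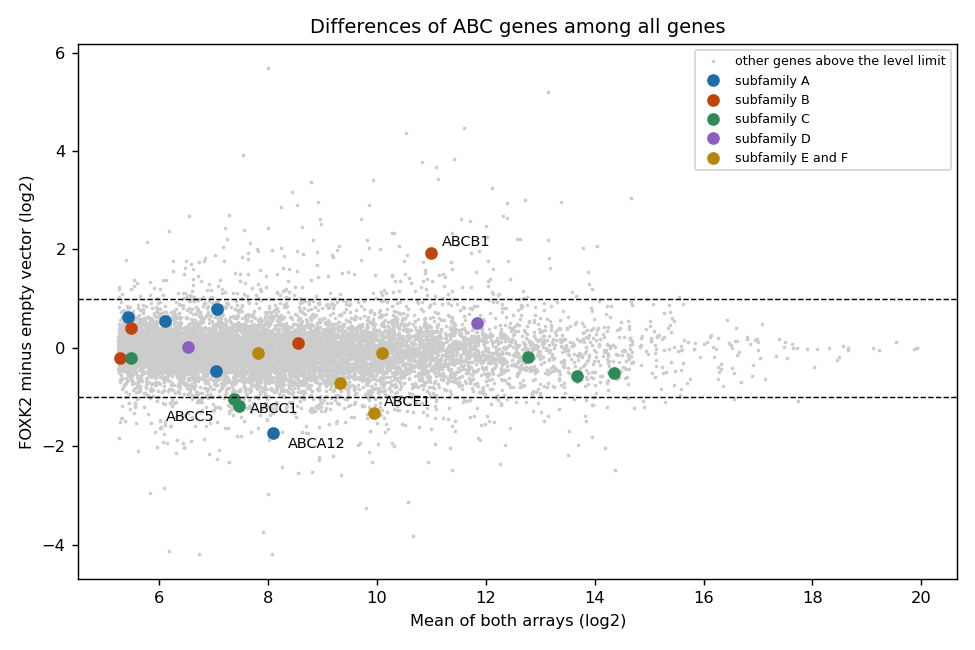
Difference between the FOXK2 and the empty vector array (y axis, log2) against the mean of both (x axis, log2) for all 11263 genes above the level limit (grey) and the 21 ABC genes among them, coloured by subfamily, with dashed lines at 2-fold. ABCB1 lies above the upper line at 1.93, and ABCA12, ABCE1, ABCC1 and ABCC5 lie below the lower line.

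Subfamily A, the lipid transporters, held the lowest difference of the family beside positive ones. ABCA12, which in skin loads lipids into the lamellar granules of keratinocytes, stood at 8.95 with empty vector and 7.22 with FOXK2. Its difference of -1.74 was at rank 59 from the lowest and ranged from -1.81 to -1.65 under the same alternatives. ABCA3, which loads surfactant lipids in the lung, stood at 7.27 and 6.80, a difference of -0.47.

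The other 3 A members above the limit were higher with FOXK2, each by less than 2-fold. ABCA2, a lipid transporter of endosomes and lysosomes, stood at 6.65 and 7.44, a difference of 0.79, the positive difference nearest to the 2-fold limit. ABCA5, a lysosomal lipid transporter, stood at 5.10 and 5.74, from below to above the level limit. ABCA1, which hands cholesterol and phospholipid to apolipoprotein A-I, stood at 5.83 and 6.37, a difference of 0.54. ABCA5 is next to ABCA10, ABCA6, ABCA9 and ABCA8 in gene order on chromosome 17. Those 4 lay below the level limit, with differences from -0.07 to 0.38, the highest of them ABCA6 at 4.07 and 4.45.

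Partners of sterol export were mostly below the level limit: 3 of 7 measured lay above it. NPC1, the cholesterol exporter of lysosomes, stood at 11.02 with empty vector and 9.37 with FOXK2, or 3.14-fold lower. APOM, an apolipoprotein of high-density lipoprotein made in liver and kidney, stood at 9.83 and 10.98, or 2.22-fold higher. SCARB1, the receptor for high-density lipoprotein, differed by -0.18. Thus 1 of these 3 was at least 2-fold higher and 1 lower, where 2.13% and 3.05% of all genes were. APOA1 and APOE, the main lipid acceptors, lay below the limit in both arrays, at 4.22 and 4.21 and at 4.74 and 4.74.

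Of 14 listed receptors and factors known to regulate ABC genes, 10 were measured and 9 lay above the limit. AHR, the aryl hydrocarbon receptor, which senses xenobiotics, stood at 11.10 with empty vector and 12.34 with FOXK2, or 2.36-fold higher, and was the only one of the 9 to reach 2-fold (2.13% of all genes were higher by as much). PPARA and PPARD, fatty acid receptors, differed by 0.55 and 0.53, and NFE2L2, the antioxidant factor that drives several C members and GCLM, by -0.33. The oxysterol receptor NR1H3, an inducer of ABCA1, stood at 5.42 and 5.76. The 9 had no common direction, with 4 positive and 5 negative differences and a median of -0.03.

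The organelle transporters differed little. In mitochondria, ABCB6, a porphyrin transporter, stood at 5.27 and 5.67, a difference of 0.40. ABCB10, which supports haem synthesis at the inner membrane, stood at 8.49 and 8.60, and ABCB8 at 5.39 and 5.18. None of these 3 reached 2-fold, in contrast to ABCB1 of the same subfamily.

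Among 9 haem and iron-sulphur genes above the limit, 1 was at least 2-fold higher and none lower, where 2.13% and 3.05% of all genes were. This was FLVCR1, a haem and choline transporter, at 10.11 with empty vector and 11.27 with FOXK2. The mitochondrial iron carrier SLC25A37 differed by -0.88, FECH, the last enzyme of haem synthesis, by -0.80, and FLVCR2 by 0.75. The list had no common direction, with 4 positive and 5 negative differences.

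In peroxisomes, ABCD3, which imports branched-chain fatty acids and bile acid intermediates, stood at 11.59 with empty vector and 12.09 with FOXK2, a difference of 0.50. ABCD4, which acts in lysosomes to release cobalamin, stood at 6.51 and 6.54, and its small positive difference of 0.03 turned to -0.04 once the arrays were centred on their medians. LMBRD1, the partner of ABCD4, stood at 11.65 and 12.25. Of 8 peroxisomal and lysosomal partners above the limit, 6 were positive, with a median of 0.34, where 43.3% of all genes were positive. SLC27A2, an acyl-CoA synthetase for very long-chain fatty acids in peroxisomes and a fatty acid transporter, stood at 11.33 and 12.94, or 3.04-fold higher, and was the only one of the 8 to reach 2-fold (2.13% of all genes were higher by as much); ACAA1, a thiolase, differed by 0.52 and PEX3, a membrane assembly factor, by 0.49.

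The E and F proteins, which work on ribosomes and not in membranes, all had negative differences as deposited, with a median of -0.41, where 55.6% of all genes were negative. ABCE1, which splits ribosomes after termination for reuse, stood at 10.59 with empty vector and 9.28 with FOXK2, a difference of -1.32 at rank 148 from the lowest. ABCF2 stood at 9.68 and 8.97, a difference of -0.71, the negative difference nearest to the 2-fold limit from below. ABCF1, which binds the initiation factor eIF2, stood at 10.14 and 10.03, the mean of 7 transcript clusters that held only 2 distinct pairs of values, with differences of -0.12 and -0.11. ABCF3 stood at 7.86 and 7.76, and its difference of -0.10 became 0.23 after subtraction of its neighbourhood on chromosome 3.

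The partners of these proteins in termination, recycling and initiation were negative in all 8 measured cases as deposited, with a median of -0.38, and in each scaling, with medians between -0.45 and -0.31; of all genes 55.6% were negative as deposited and 64.0% after centring. EIF2AK4, the kinase that senses uncharged transfer RNA, stood at 8.98 with empty vector and 7.97 with FOXK2, 2.01-fold lower, where 3.05% of all genes were at least 2-fold lower, and it was short of that limit after loess, after quantile normalization and relative to its neighbourhood, where it stood at -0.70. ETF1, the release factor that recognises stop codons, differed by -0.66, GCN1, the activator of EIF2AK4, by -0.59, and EIF2S3, a subunit of eIF2, by -0.43. In a cell population, fewer cells that hold a transcript and less of it per cell cannot be told apart.

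The 21 members below the level limit had values between 3.71 and 5.10 and differences between -0.69 and 0.38. They include all 5 measured members of subfamily G: the cholesterol exporters ABCG1 and ABCG4, the sterol pair ABCG5 and ABCG8, and ABCG2. The liver transporters ABCB4, for bile phospholipid, and ABCB11, for bile salts, were at 4.09 and 4.18 and at 3.76 in both arrays. ABCB11 and ABCG4 held exactly the same value in both arrays. The ABC proteins with other names showed no 2-fold difference: TAP1 and TAP2, which form the peptide transporter of antigen presentation, stood at 5.89 and 6.35 and at 6.11 and 6.15, and CFTR, the chloride channel, lay below the limit at 3.51 and 3.60.

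The differences were next set against those of neighbouring genes, because genes along a chromosome segment can differ together. For each gene the median of 51 neighbouring genes above the level limit, itself included, was subtracted. After this, 2.39% of all genes were at least 2-fold higher and 2.05% lower, and of the 21 ABC genes 1 was higher and 2 were lower, the latter 9.52%. The loci of ABCE1 and ABCC5 lay in low surroundings. Around ABCE1, on chromosome 4, 43 of 50 neighbours had negative differences, with a median of -0.47, and SLC7A11 was the only neighbour lower than ABCE1 itself; relative to them ABCE1 stood at -0.83, below 2-fold in size. Around ABCC5, on chromosome 3, 43 of 50 neighbours were negative, with a median of -0.31. Of all genes above the limit, 55.6% were negative, with a median of -0.05.

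The other 3 stayed at least 2-fold different relative to their surroundings. They were picked for differences that are large among all genes, so few neighbours could lie beyond them. Whether they stand apart locally was not tested. ABCB1 exceeded all 50 neighbours on chromosome 7, whose median was 0.17, and stood at 1.75 relative to them. Its nearest neighbours above the limit, CROT and RUNDC3B, differed by -0.07 and 0.77, and ABCB4, the adjacent and closely related gene, stood below the limit with a difference of 0.09. ABCA12 stood at -1.66 relative to a neighbourhood with a median of -0.08, in which FN1, the fibronectin gene, was the only one lower. The nearest neighbours of ABCA12 above the limit, BARD1 and ATIC, differed by -0.21 and -0.93, and FN1, next to ATIC, by -3.73. Of its 50 neighbours, 4 were at least 2-fold lower and 3 higher, where 3.05% and 2.13% of all genes were. ABCC1 stood at -1.21 relative to a neighbourhood with a median of 0.05. VPS35L, at -1.20, was the only neighbour lower than ABCC1 as deposited (-1.17). Of the 50 neighbours, 6 were at least 2-fold higher, where 2.13% of all genes were. These 6 were the pseudogenes ABCC6P1 and ABCC6P2, with ACSM5, ACSM2A, ACSM2B and ANKS4B. ABCA1 and ABCA2, both on chromosome 9, moved up to 0.94 and 0.93, and both remained short of 2-fold. Of the neighbours, 37 of 50 for ABCA1 and 32 of 46 for ABCA2 were negative, where 55.6% of all genes were.

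**Figure D3:**
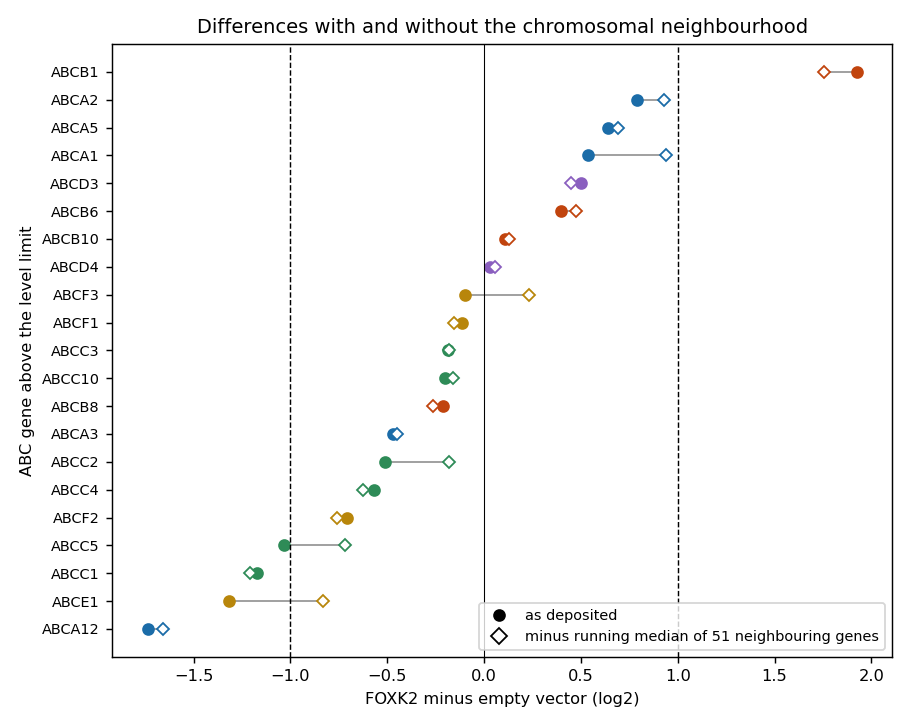
Difference between the FOXK2 and the empty vector array (x axis, log2) of the 21 ABC genes above the level limit (y axis), as deposited (filled circles) and relative to the running median of 51 neighbouring genes (open diamonds), coloured by subfamily as in the plot of values by array, with dashed lines at 2-fold. ABCE1 and ABCC5 move inside the 2-fold lines, to -0.83 and -0.72, ABCF3 crosses zero, and ABCB1, ABCA12 and ABCC1 stay outside.

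**Figure D4:**
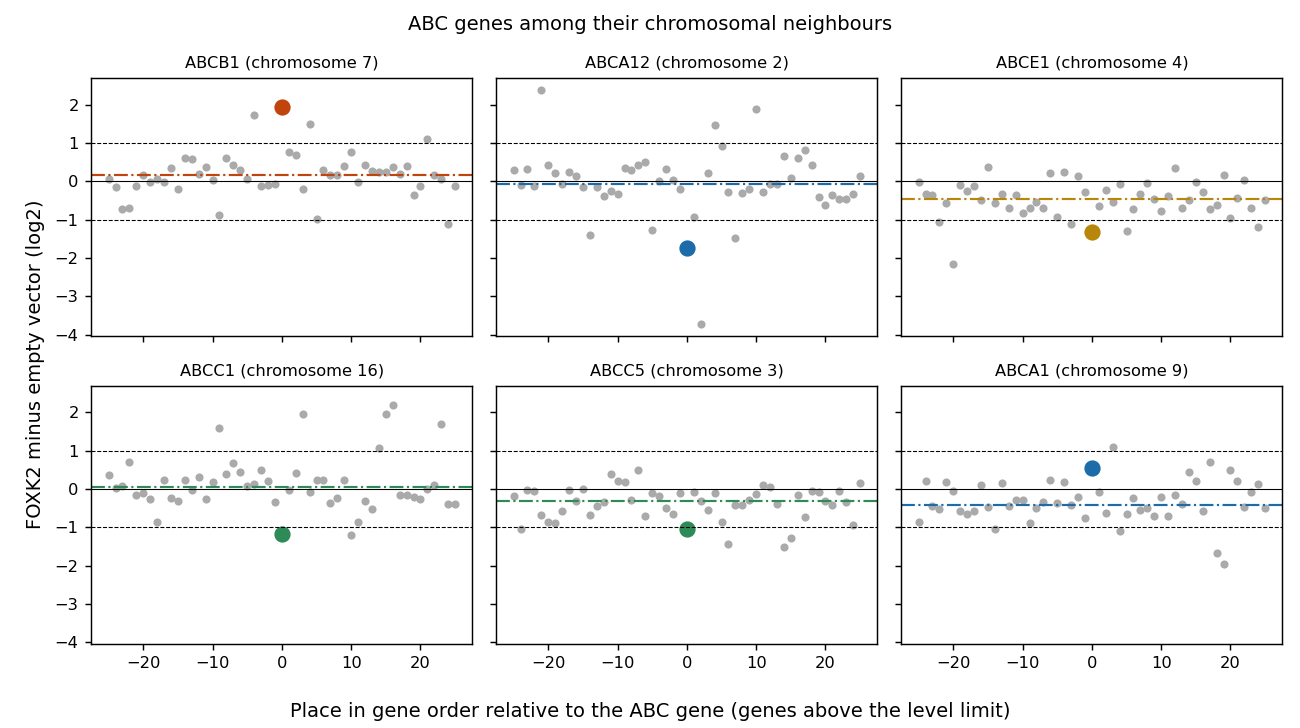
Difference between the arrays (y axis, log2) of 6 ABC genes (large points) and of up to 25 genes on either side above the level limit (small grey points), by place in gene order (x axis), with the neighbours' median as a dash-dotted line and 2-fold as dashed lines. The neighbours of ABCE1, ABCC5 and ABCA1 lie mostly below zero, with medians of -0.47, -0.31 and -0.41, and ABCB1 lies above all of its neighbours.

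The sequences upstream of ABCB1, ABCE1, ABCC5 and ABCA12, each at least 2-fold different, are shown because FOXK2 is a DNA-binding factor of the forkhead family, whose members bind GTAAACA. Each is the 250 bases before the RefSeq gene start in GRCh38.p14, written 5′ to 3′ on the strand of the gene, with capitals for any match, on either strand, to GTAAACA, to its core TAAACA, to CCAAT or to the GC box GGGCGG. 34 of the 42 members matched an entry, and ABCC1, also at least 2-fold different, is named without a sequence.
ABCB1 (chr7:87713296-87713545, minus strand): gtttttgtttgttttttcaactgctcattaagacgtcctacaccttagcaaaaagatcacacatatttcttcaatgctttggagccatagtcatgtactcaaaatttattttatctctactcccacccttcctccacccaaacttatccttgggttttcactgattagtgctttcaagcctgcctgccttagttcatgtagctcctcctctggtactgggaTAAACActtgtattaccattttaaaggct
ABCE1 (chr4:145098061-145098310, plus strand): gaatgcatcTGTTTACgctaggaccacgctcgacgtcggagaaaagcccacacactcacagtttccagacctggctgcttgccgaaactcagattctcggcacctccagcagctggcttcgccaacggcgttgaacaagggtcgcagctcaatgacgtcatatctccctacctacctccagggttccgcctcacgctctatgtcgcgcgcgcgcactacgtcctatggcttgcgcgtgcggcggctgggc
ABCC5 (chr3:184017885-184018134, minus strand): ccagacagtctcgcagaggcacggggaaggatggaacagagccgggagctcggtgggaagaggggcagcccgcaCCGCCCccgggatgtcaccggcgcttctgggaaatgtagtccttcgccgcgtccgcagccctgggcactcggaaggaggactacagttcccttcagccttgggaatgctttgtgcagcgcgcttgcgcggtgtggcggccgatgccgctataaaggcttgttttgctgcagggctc
ABCA12 (chr2:215138627-215138876, minus strand): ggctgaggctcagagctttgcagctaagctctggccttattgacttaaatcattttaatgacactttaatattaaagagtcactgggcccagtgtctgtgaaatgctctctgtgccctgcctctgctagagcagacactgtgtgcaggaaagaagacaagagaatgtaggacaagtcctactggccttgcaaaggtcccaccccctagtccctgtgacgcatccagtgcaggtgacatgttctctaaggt

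GTAAACA was found upstream of ABCE1, on the opposite strand and beginning 241 bases before the start. It was also present in the windows of ABCA6 and ABCF1, so that 3 of 34 members held it (8.82%), against 2.98% of 27305 RefSeq windows of the same length. The shorter TAAACA, which lies within GTAAACA, was found upstream of ABCB1, 29 bases before the start, and in 6 of 34 members (17.6%), against 11.1% of all windows. The window of ABCC5 held 1 GC box, on the opposite strand, and no CCAAT was found in these 4 windows; GGGCGG was present in 42.3% of all windows and in 18 of the 34 members (52.9%), and CCAAT in 33.0% of all windows and in 6 of the 34 members (17.6%). ABCA12, with the largest negative difference, held none of these letters. A match in letters is a description of the window and not a site of binding, and ABCB1 is known to have more than a single promoter, of which the window covers only the annotated gene start.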

How the data were processed

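RNA of 2 groups, 1 array each, was measured. The values were made by the authors in Affymetrix Expression Console, per the submitters' processing notes; for its algorithm and version, and for the genome build, the entry is: not given in the sources used here. Deposited values were taken as log2 expression values per transcript cluster, a scale read from their range of 2.13 to 19.93 and not stated by the authors; no further normalization was applied. Of 67528 transcript clusters, 23781 had 1 symbol in the platform annotation, 1543 had several and 42204 had none; only the first were used. Symbols were updated with RefSeq (GRCh38.p14), 21497 by Entrez identifier, 1974 by current symbol and 306 by an older one, and transcript clusters of a gene were averaged. RefSeq gave gene order and the upstream sequences; the array's own coordinates were not used.

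A gene was counted at a difference of 1 or more in size (2-fold) if its mean reached the level limit of 5.24. Alternatives were centring, loess (span 0.3), quantile normalization, the brightest transcript cluster, subtraction of a running median over 51 genes, other level filters and fold limits of 1.5 and 3. The number of arrays limits the precision. All members could be named; those at least 2-fold different and those nearest the limit are given in full, and of related lists the 4 genes above the limit with the largest differences, with a few others (NR1H3, KCNJ8, APOA1, APOE, TAP1, TAP2 and CFTR) chosen after their values were seen. Members and lists were chosen with earlier results of these data known. Calculations ran in Python 3.11.15 with statsmodels 0.14.6, pandas 2.3.3 and numpy 2.4.6, and were tested on simulated data.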

Additional observations from a re-analysis of the deposited data

Results flagged for a closer look

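2 loci that the choice of members left out stood above the level limit and were at least 2-fold higher in the FOXK2 array. ABCC6P1, a transcribed pseudogene, stood at 7.93 with empty vector and 9.88 with FOXK2, a difference of 1.95 on the log2 scale, and ABCC6P2, another, at 5.82 and 7.42, a difference of 1.603. Relative to the running median along the chromosome they stood at 1.97 and 1.53. Both are copies of part of ABCC6, which was not analysed here, so the gene from which the labelled RNA came cannot be told apart. They lie on chromosome 16 among the neighbours of ABCC1, which had a difference of -1.17. The other 5 left-out loci, ABCA15P, ABCA17P, ABCC13 and the antisense genes ABCA9-AS1 and ABCC5-AS1, lay below the level limit, with differences between -0.12 and 0.01.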

How the results depend on the processing

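ABCB1, ABCA12 and ABCC1 kept their direction and at least 2-fold size under centring, loess, quantile normalization and subtraction of the running median. Each of them has 1 transcript cluster, so taking the brightest transcript cluster could not change its value. ABCC5 was short of 2-fold after loess (-0.96), quantile normalization (-0.997) and subtraction of the running median (-0.72), and ABCE1 after the last (-0.83). The number of lower members, 4 as deposited, was 2 after that subtraction, 2 with the level limit at the upper quartile (7.71) and 1 at a 3-fold limit; the number of higher members was 3 at a 1.5-fold limit. The members' median turned from -0.19 to 0.034 with no filter on level. The share of all genes that was higher (2.13% as deposited) was 1.11% with no filter, 6.09% at 1.5-fold and 0.87% at 3-fold, and the share lower (3.05%) was 1.58%, 10.6% and 0.74%. Among members short of 2-fold, the sign turned for ABCD4 after centring and for ABCF3 after subtraction of the running median. The scalings moved the median of all genes by between -0.07 and 0.08. No paired analysis was possible because each group is 1 array. With no intensities or background used here, differences of low genes cannot be judged.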
